A study of Mus musculus with 3 samples.

Results

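Pik3r3, Gpr22 and Slc7a14, 3 genes that stood far lower in Sox7-null than in wild-type embryonic mouse heart tubes, are described here together with Pik3r1 and Pik3r2, the sister genes of Pik3r3. They are 5 of the 23337 genes counted in each library, found by their symbols. The first 3 were chosen by their read counts, which fell steeply in this same comparison, so their values are given as a description with no test, and Pik3r1 and Pik3r2 were added for comparison. RNA was sequenced from heart tubes at embryonic day 9.5 in 3 libraries, 2 labelled Sox7-null with both copies of Sox7 altered (SOX7 -/-) and 1 labelled wild type. The labels do not say how the null allele was made, on which strain, or whether a tube came from 1 embryo or a pool, and nothing says that the null libraries came from separate litters. The tissue label names the heart tube, while the extraction text names retinal material, so markers of both were examined below.

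Class IA phosphoinositide 3-kinases make the membrane lipid PIP3 when growth factor receptors are active, and PIP3 recruits the kinase AKT. Each enzyme pairs a catalytic subunit (Pik3ca, Pik3cb, Pik3cd) with a regulatory subunit that binds phosphorylated receptors and adaptors through its SH2 domains. Pik3r1 encodes p85-alpha and its shorter forms, Pik3r2 encodes p85-beta, and Pik3r3 encodes the short subunit p55-gamma. Gpr22 encodes an orphan G-protein-coupled receptor, one with no settled ligand, known for its expression in heart and brain. Slc7a14 encodes a lysosomal membrane protein related to the cationic amino acid transporters, known for its expression in neural tissue and its role in photoreceptors.

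The sequences around the annotated starts of the 3 genes show how different their promoters were in base composition. Each runs from 250 bases before to 50 bases after a start, 5′ to 3′ on the gene's strand, as given by RefSeq for GRCm38.p6, and all 5 genes matched the RefSeq promoter table. Of the 3 windows of Pik3r3 the first is shown, chr4:116221166-116221465 on the plus strand, then Gpr22 at chr12:31713834-31714133 and Slc7a14 at chr3:31310270-31310569, both on the minus strand. Capitals mark, on either strand, a CCAAT box, the TATA string TATAAA or the E-box CACGTG.
Pik3r3: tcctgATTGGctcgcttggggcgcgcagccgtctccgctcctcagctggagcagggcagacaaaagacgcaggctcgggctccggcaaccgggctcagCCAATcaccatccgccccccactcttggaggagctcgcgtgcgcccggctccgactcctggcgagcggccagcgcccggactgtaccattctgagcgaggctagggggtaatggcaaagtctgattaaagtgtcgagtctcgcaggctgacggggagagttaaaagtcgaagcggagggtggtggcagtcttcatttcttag
Gpr22: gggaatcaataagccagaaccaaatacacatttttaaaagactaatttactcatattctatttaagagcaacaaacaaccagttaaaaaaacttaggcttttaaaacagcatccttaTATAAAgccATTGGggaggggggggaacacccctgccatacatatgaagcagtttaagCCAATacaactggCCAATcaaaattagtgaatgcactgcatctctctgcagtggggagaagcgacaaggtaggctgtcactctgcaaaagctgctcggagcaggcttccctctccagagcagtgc
Slc7a14: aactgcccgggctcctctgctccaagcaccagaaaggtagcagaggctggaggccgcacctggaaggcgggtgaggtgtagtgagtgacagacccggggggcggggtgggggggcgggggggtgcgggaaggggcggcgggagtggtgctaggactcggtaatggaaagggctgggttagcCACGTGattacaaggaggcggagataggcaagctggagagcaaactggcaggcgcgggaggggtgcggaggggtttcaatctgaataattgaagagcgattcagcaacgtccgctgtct
The Pik3r3 window was 63.0% G and C with 25 CpG pairs and held CCAAT at 2 places. The Slc7a14 window was 63.3% G and C with 18 CpG pairs and held CACGTG once. The Gpr22 window was the poorest of the 3, with 43.0% G and C and 2 CpG pairs, and held CCAAT at 3 places and TATAAA once. Among 32851 promoter windows of 27025 genes the median was 52.7% G and C and 7 CpG pairs. The Slc7a14 window and the first of Pik3r3 lay above the median in both, and that of Gpr22 below it in both. The second Pik3r3 window had 58.0% G and C with 14 CpG pairs. The third had 47.3% with 6 CpG pairs, below both medians, and neither of these held CCAAT. The sister genes had G and C rich first windows, 75.7% with 34 CpG pairs in Pik3r1 and 69.3% with 36 CpG pairs in Pik3r2.

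These strings and 3 others were searched on both strands, none of them contained in another. CCAAT occurred in 37.4% of all promoter windows, the TATA string TATAAA in 13.6% and the E-box CACGTG in 7.15%. GTAAACA, a string that forkhead proteins bind, occurred in 3.65%. AACAAT, a string that SOX proteins bind, occurred in 10.7%, and ACAAAG, shared by SOX and TCF proteins, in 18.7%. None of the 8 windows of the 5 genes held the SOX string AACAAT or the forkhead string GTAAACA. The string ACAAAG was present once in the third window of Pik3r3 and once in the second window of Pik3r1. A match or its absence describes only the letters in these windows.

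The libraries held 13139823 (Sox7-null 1), 13618338 (Sox7-null 2) and 13789388 (wild type) reads assigned to genes, and 13334 genes had enough reads to be tested, all 5 members among them. The wild-type library stood apart in its reads outside these counts, with 22.3% not uniquely aligned against 10.4% and 11.6% in the nulls, and 11.7% in no feature against 8.10% and 8.52%. With 1 wild-type library, this difference and the genotype cannot be told apart. Sox7 itself had 222 reads in the wild type and 2 and 7 in the nulls, which fits the labels. With edgeR's quasi-likelihood test at a Benjamini-Hochberg adjusted p under 0.05, 21.6% of tested genes differed, 11.3% higher and 10.2% lower in the nulls. These shares are the background for every count below. With 2 libraries against 1, the fit takes the spread of the single wild type to equal that of the nulls, and a p-value reflects no more than how the nulls differ, which could be technical.

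Pik3r3 had 380 reads in the wild type, against 55 in Sox7-null 1 and 110 in Sox7-null 2. In CPM, each library's counts scaled to a common total with TMM factors, and in the order Sox7-null 1, Sox7-null 2, wild type used from here on, its level was 4.08, 7.98 and 28.6, a null mean of 6.03 ± 2.76 CPM (SD, n = 2). Both null libraries were far below the wild type, and the 2 nulls also differed from each other. Sox7-null 1 kept 14.2% of the wild-type CPM and Sox7-null 2 kept 27.9%. The fitted log2 fold change was -2.25 ± 0.32 (SE), and the summed null reads were 4.73-fold lower than the wild type, with an exact 95% interval of 3.93 to 5.72 that covers counting error only. Sox7-null 2 was 1.96-fold above Sox7-null 1 (exact 95% interval 1.40 to 2.76, counting error only). That gap, 0.89 in log2, was at the 97.6th percentile of the gaps between the 2 nulls among 2272 genes within 1.5-fold of its level, whose median gap was 0.20. In RNA from whole tubes, fewer cells that express a gene and less RNA of it per cell cannot be told apart.

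Gpr22 had 81, 64 and 316 reads in that order, which is 6.01, 4.64 and 23.8 CPM. The null mean was 5.32 ± 0.964 CPM (SD, n = 2), and here the second null library was the lower, at 19.5% of the wild type against 25.2%. The fitted log2 fold change was -2.16 ± 0.27 (SE), and the summed null reads were 4.48-fold lower (exact 95% interval 3.67 to 5.49, counting error only). The nulls differed by 1.29-fold, and the interval of that ratio, 0.921 to 1.82, includes 1.

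Slc7a14 had 37, 59 and 198 reads in the same order, which is 2.74, 4.28 and 14.9 CPM. Its null mean was 3.51 ± 1.09 CPM (SD, n = 2), and as with Pik3r3 the first null library was the lower, at 18.4% of the wild type against 28.7%. The fitted log2 fold change was -2.08 ± 0.34 (SE), and the summed null reads were 4.24-fold lower (exact 95% interval 3.31 to 5.47, counting error only). The second null library was 1.56-fold above the first, with an interval of 1.02 to 2.42.

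For none of the 3 genes did a null library reach the wild-type level. Their counting intervals for the fall, from 3.31 to 5.72 in all, overlap each other. They are low to middling transcripts, at the 39.8th (Pik3r3), 36.7th (Gpr22) and 28.1st (Slc7a14) percentile of mean CPM among tested genes. Among the 1231 genes called lower with a mean of at least 5 CPM, Pik3r3 had the 8th, Gpr22 the 10th and Slc7a14 the 11th steepest fitted fall, with Omd, an extracellular matrix proteoglycan, between the first 2 at -2.19. Ppp1r3a, a glycogen-targeting subunit of protein phosphatase 1 known from muscle, followed at -2.08. Since the 3 genes were chosen for steep falls in this comparison, their place among these genes follows from that choice and adds no support.

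**Figure D1:**
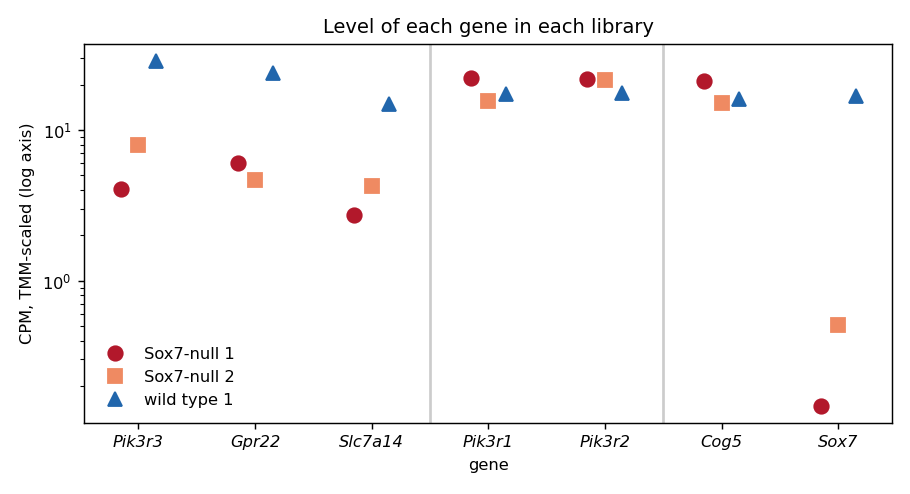
Level of each gene in each library, in TMM-scaled CPM on a log axis, 1 point per library (circle and square for the Sox7-null libraries, triangle for the wild type). Pik3r3, Gpr22 and Slc7a14 lie between 2.74 and 7.98 CPM in the nulls and between 14.9 and 28.6 in the wild type, while the points of Pik3r1 and Pik3r2 lie between 15.7 and 22.2 CPM. To their right, Cog5, the gene around Gpr22, is at 21.2 and 15.1 CPM in the nulls and 16.0 in the wild type. Sox7 is at 0.148 and 0.508 CPM in the nulls.

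**Figure D2:**
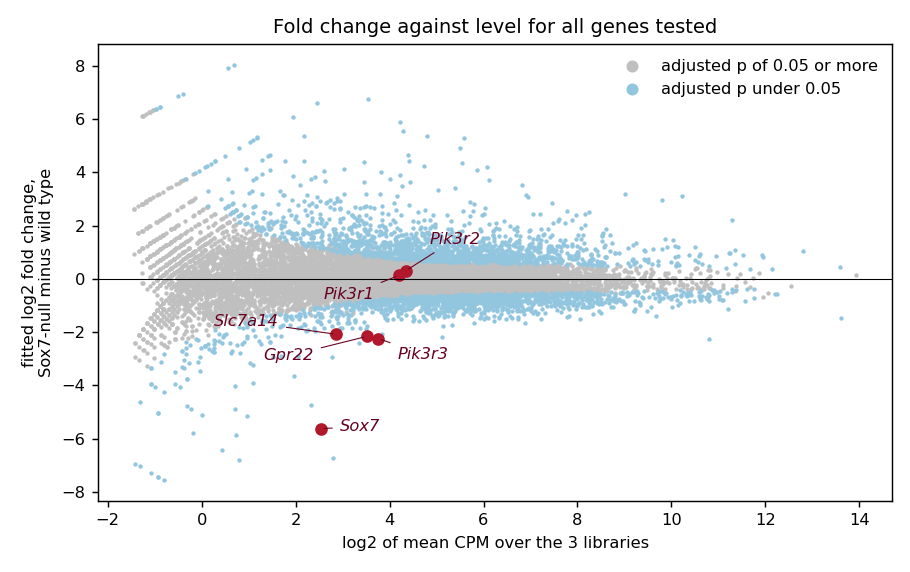
Fitted log2 fold change of Sox7-null against wild type (vertical) over the log2 mean CPM (horizontal) for the 13334 tested genes, blue where the edgeR adjusted p was under 0.05. The chosen genes and Sox7 are in red, with Pik3r3, Gpr22 and Slc7a14 close together near -2 and Pik3r1 and Pik3r2 near 0.

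The sister subunits did not follow Pik3r3. Pik3r1 had 300, 216 and 230 reads, or 22.2, 15.7 and 17.3 CPM, so that the wild type lay between the 2 nulls. Its fitted log2 fold change was 0.13 ± 0.26 (SE), and the ratio of summed reads was 1.09 (exact 95% interval 0.933 to 1.28, counting error only). Pik3r2 had 293, 298 and 233 reads, or 21.7, 21.6 and 17.6 CPM, both nulls above the wild type. Its fitted log2 fold change was 0.30 ± 0.23 (SE), and the ratio was 1.23 (1.06 to 1.44, counting error only). With transcript length and GC trends taken out of the fit, the log2 fold changes were -0.092 for Pik3r1 and -0.070 for Pik3r2, against -2.32 for Pik3r3.

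The make-up of the class IA regulatory transcripts therefore differed between the libraries. Per kilobase of exon, which allows levels of different genes to be compared, the wild type held 5.40 CPM per kb of Pik3r3, 4.21 of Pik3r2 and 1.72 of Pik3r1. Over the union of its annotated exons, Pik3r3 was the highest of the 3 there, at 47.7% of their sum. That order depends on the length used. The longest transcript of Pik3r2 is 3165 bases against a union of 4176, and that of Pik3r3 5257 against 5300. Per kilobase of longest transcript, wild-type Pik3r2 would stand slightly above Pik3r3. In Sox7-null 1 the levels were 0.769 CPM per kb of Pik3r3, 5.20 of Pik3r2 and 2.21 of Pik3r1, and Pik3r3 made up 9.41%. In Sox7-null 2 they were 1.51, 5.18 and 1.55 CPM per kb in the same order, and Pik3r3 made up 18.3%. Pik3r3 was thus the lowest of the 3 in both nulls. By union length, its margin was wide in the first, and Pik3r3 was nearly level with Pik3r1 in the second. Pik3r2 made up 37.1% of the sum in the wild type and 63.6% and 62.8% in the nulls.

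The sum of the 3 genes was 11.3 CPM per kb in the wild type and 8.18 and 8.24 in the nulls. As plain reads, Pik3r3 took 45.1% of the 843 regulatory-subunit reads of the wild type (Wilson 95% interval 41.7 to 48.5%). It took 8.49% of 648 in Sox7-null 1 (6.58 to 10.9%) and 17.6% of 624 in Sox7-null 2 (14.8 to 20.8%). The gap between the wild type and the nulls follows from how Pik3r3 was chosen and is no test. The intervals of the 2 nulls do not overlap, so the nulls differed from each other beyond counting error.

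**Figure D3:**
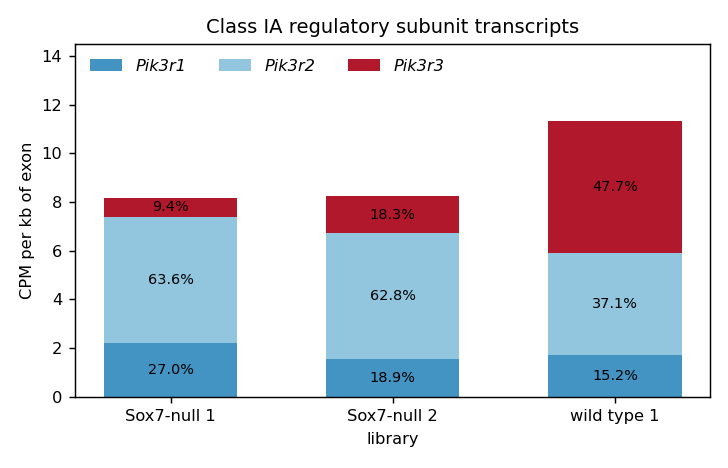
Stacked bars of Pik3r1, Pik3r2 and Pik3r3 in each library, in CPM per kb of union exon length. Pik3r3 is the tallest segment in the wild type (5.40) and the smallest in both nulls (0.769 and 1.51), while Pik3r2 stays between 4.21 and 5.20.

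None of the other PI3K subunit genes tested was called lower. Of 10 tested genes in a list of 13 other subunits and binding proteins, 2 rose with edgeR (20.0%, against 11.3% of all genes). With edgeR 0 fell, against 10.2% of all genes, and on 10 genes a count of 0 is near that share. None was lower at an unadjusted p under 0.05, nor by DESeq2 or limma-voom. The median log2 fold change of the list was 0.28, against 0.014 for all genes, and 0.01 with length and GC trends removed. Pik3ip1, a membrane protein that restrains the catalytic subunit, rose from 44 reads in the wild type to 294 and 147 in Sox7-null 1 and 2 (log2 fold change 2.29 ± 0.43 SE, edgeR adjusted p = 0.00342). Pik3cb, the p110-beta catalytic subunit, had 413, 371 and 200 reads (0.93 ± 0.23 SE, edgeR adjusted p = 0.0141, DESeq2 adjusted p = 0.0559). Pik3ca, the p110-alpha catalytic subunit, had 941, 866 and 893 reads and a log2 fold change of -0.02 ± 0.20 (SE). For the scarcer p110-delta gene Pik3cd it was 0.46 ± 0.39 (SE).

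Receptors and adaptors that feed into PI3K were often higher. Of 17 tested in a list of 18, 9 rose (52.9%) and 0 fell with edgeR, with 0 lower at an unadjusted p under 0.05 and by DESeq2 or limma-voom. DESeq2 called 7 higher, and the fit with length and GC trends removed called 6. The list median was 0.80, or 0.43 with the trends removed. Irs2, an adaptor of insulin and IGF receptors, had 197, 158 and 44 reads (1.97 ± 0.34 SE, edgeR adjusted p = 0.00231). The receptor genes Igf1r, with 2568, 2111 and 1139 reads, and Insr, with 1345, 844 and 446 reads, rose by 1.00 ± 0.20 and 1.26 ± 0.28 (SE) in log2. The adaptor Gab2 rose by 1.37 ± 0.28 and the receptor Kit by 1.28 ± 0.27 (SE).

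Downstream of PIP3, most genes did not pass the test. Of 32 kinases, phosphatases and effectors, 3 rose (9.38%, near the background) and 0 fell with edgeR. At an unadjusted p under 0.05, 6 were higher and 2 lower, DESeq2 and limma-voom called 0 lower, and the list median was 0.17. Foxo3, a transcription factor that AKT keeps out of the nucleus, had 221, 151 and 44 reads (2.04 ± 0.37 SE, edgeR adjusted p = 0.00264). Eif4ebp1, a translation repressor under mTOR, rose by 0.83 ± 0.17 (SE). With length and GC trends removed, Akt1 (-0.53) and Mtor (-0.60) were called lower, against -0.25 and -0.04 without that step.

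Genes known as FoxO targets were also counted. Of 18 tested, 7 rose (38.9%) and 0 fell with edgeR, with 10 higher and 1 lower at an unadjusted p under 0.05. DESeq2 called 5 higher and 0 lower, limma-voom the same numbers, and the list median was 0.50. The growth-arrest gene Gadd45a had 232, 158 and 30 reads (2.66 ± 0.39 SE, edgeR adjusted p = 0.000978). The mitophagy gene Bnip3 rose, with 17124, 15007 and 5529 reads (edgeR adjusted p = 0.000217). The cyclin gene Ccng2 rose by 1.39 ± 0.26 and the cell cycle inhibitor Cdkn1b by 1.19 ± 0.23 (SE) in log2. Several of these genes also answer to other stresses, and no activity of PI3K, AKT or FoxO was measured here.

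For Gpr22, G-protein-coupled receptors known in the heart were counted, a list made by place of expression and not by relation to Gpr22. Of 25 tested in a list of 34, 3 rose and 1 fell, near or under the background of 11.3% and 10.2%. Lpar4, a lysophosphatidic acid receptor, fell, with 269, 308 and 562 reads (19.9, 22.3 and 42.4 CPM, edgeR adjusted p = 0.00582). Adora2a, an adenosine receptor, rose, with 239, 145 and 63 reads (1.57 ± 0.37 SE, edgeR adjusted p = 0.0102). The thrombin receptor gene F2r rose by 0.66 ± 0.17 (SE). Adra2a, an adrenergic receptor gene, was called higher on 27, 38 and 7 reads, and not with length and GC trends removed. The main cardiac receptors of the autonomic nerves were scarce, with 63, 51 and 23 reads of Adrb1 and 25, 11 and 6 of Chrm2, and neither passed the test.

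Other orphan receptors of the same class were mostly too scarce to test. Of 40 listed, 15 were tested and 5 had no read in any library. Gpr182, known from endothelium, fell with 152, 172 and 411 reads (-1.38 ± 0.23 SE, edgeR adjusted p = 0.00164). Gpr146 rose with 325, 198 and 62 reads (2.04 ± 0.36 SE, edgeR adjusted p = 0.00233).

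Among G protein subunits, adenylyl cyclases and their regulators, 9 of 40 tested rose and 2 fell, or 5 and 5 with length and GC trends removed. DESeq2 called 6 higher and 1 lower. Rgs16, which speeds the shut-off of G protein signals, had 100, 98 and 7 reads (3.76 ± 0.51 SE, edgeR adjusted p = 0.000667), whereas Rgs4 of the same family had 24, 27 and 82 (-1.72 ± 0.42 SE, edgeR adjusted p = 0.0127, DESeq2 adjusted p = 0.131). The gamma subunit gene Gng5 fell by 0.84 and Gng2 rose by 1.09 in log2. The inhibitory alpha subunit genes did not pass the test, with log2 fold changes of 0.18 ± 0.21 for Gnai1, 0.20 ± 0.17 for Gnai2 and -0.47 ± 0.17 for Gnai3 (SE).

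Slc7a14 was lower while several other amino acid transporters of its families were higher. Of 10 other tested Slc7 and Slc3 genes in a list of 16, 5 rose and 0 fell with edgeR, with 0 lower at an unadjusted p under 0.05 and by DESeq2 or limma-voom. The list median was 1.33, or 1.01 with length and GC trends removed, and 3 of the 16 had no read in any library. Slc7a3, a cationic amino acid transporter of the cell surface, had 689, 428 and 13 reads (5.38 ± 0.44 SE, edgeR adjusted p = 3.13e-05). Slc7a5, the light chain of a large neutral amino acid transporter, had 2819, 2124 and 447 reads (2.43 ± 0.24 SE, edgeR adjusted p = 9.76e-05), and its partner chain Slc3a2 rose by 1.61 ± 0.22 (SE). Slc7a1 had 1747, 1468 and 589 reads (1.41 ± 0.21 SE, edgeR adjusted p = 0.00115).

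Per kilobase of exon, the order within the cationic transporter branch changed with it. In the wild type Slc7a1 stood at 3.85 CPM per kb and Slc7a14 at 1.52, above Slc7a2 (0.371), Slc7a3 (0.259) and Slc7a4 (0.145). In Sox7-null 1 the levels were 11.2 CPM per kb for Slc7a1, 13.5 for Slc7a3, 1.27 for Slc7a2, 0.393 for Slc7a4 and 0.279 for Slc7a14. In Sox7-null 2 they were 9.23, 8.20, 0.508, 0.192 and 0.435 in the same order of genes. Slc7a14 went from second of the 5 to last in the first null and to the place above Slc7a4 in the second, with 37 and 59 reads behind those levels.

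**Figure D4:**
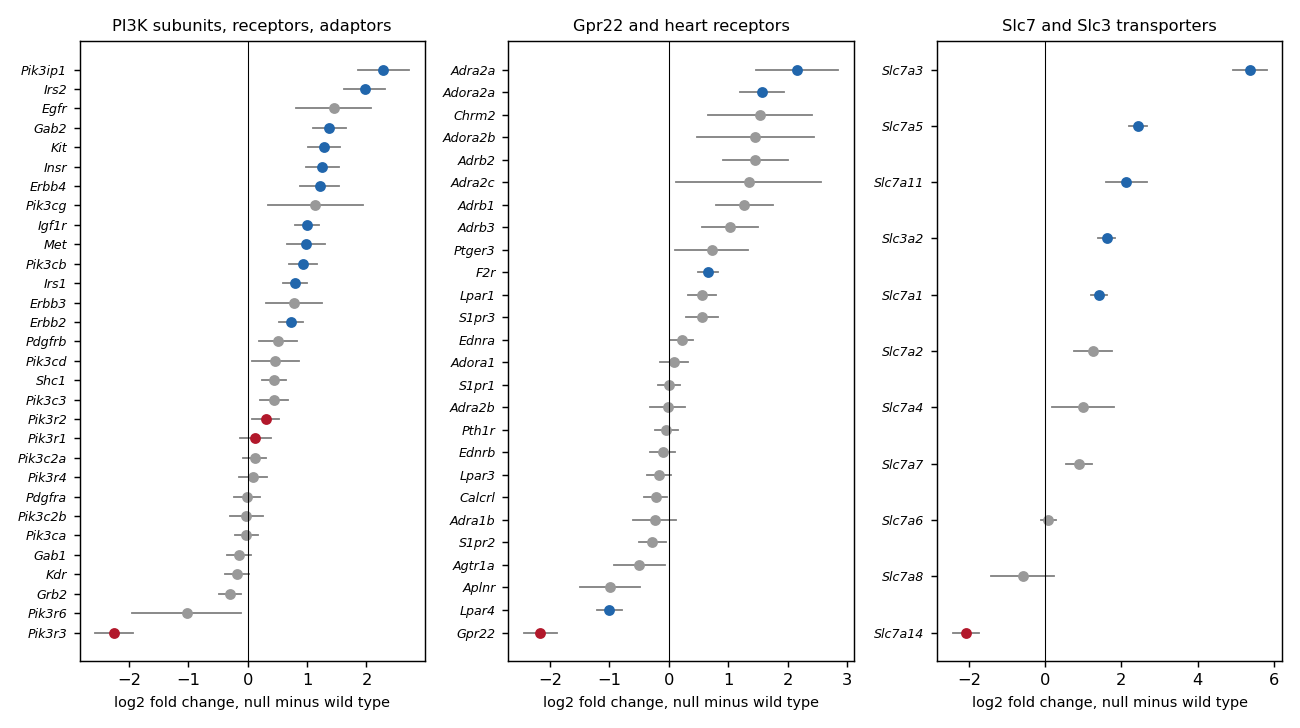
Fitted log2 fold changes with their SE for PI3K subunits, receptors and adaptors (left), heart receptors (middle) and Slc7 and Slc3 transporters (right). The chosen genes are red, other genes called by edgeR blue and genes not called grey, with Pik3r3 (-2.25), Gpr22 (-2.16) and Slc7a14 (-2.08) at the foot of their panels.

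Around the lysosome, where the Slc7a14 protein resides, counts were near the background. Of 23 tested genes of lysosomal amino acid transport and sensing, 2 rose (8.70%) and 3 fell (13.0%), with a median of 0.09. Hbxip (Lamtor5) and 0910001L09Rik (Lamtor4), subunits of the Ragulator scaffold that anchors mTORC1 signalling at the lysosome, fell by 1.14 and 0.97 in log2 (edgeR adjusted p = 0.00170 and 0.00666). Slc38a9, the arginine sensor of that membrane, had a log2 fold change of 0.00 ± 0.26 (SE). Of 11 tested genes for GABA synthesis, transport and receptors, 2 rose and 1 fell, and DESeq2 called 1 and 0. The rise of Gad1, which makes GABA, was uneven, with 148, 33 and 2 reads (11.0, 2.39 and 0.151 CPM, edgeR adjusted p = 0.00507). Gabrb2, a GABA receptor subunit, had 31, 28 and 79 reads (-1.46 ± 0.42 SE, edgeR adjusted p = 0.0259, DESeq2 adjusted p = 0.214).

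The gene models around the 3 genes matter for what their reads stand for, since the strand setting of the counting is not given in the sources used here. In GENCODE M21, Gpr22 (ENSMUSG00000044067.7) lies on the opposite strand within the bounds of Cog5, a Golgi complex gene, and shares 0 exonic bases with it. Cog5 had 286, 208 and 212 reads and a log2 fold change of 0.18 ± 0.27 (SE). The host gene was thus not called lower, and in CPM the wild type lay between the 2 nulls. The next genes on either side, Dus4l and Hbp1, had log2 fold changes of 0.23 ± 0.26 and 0.34 ± 0.20 (SE). Pik3r3 (ENSMUSG00000028698.13) shares 1289 exonic bases with Gm49337, a gene model on the same strand whose symbol is not among those counted, so its reads may include that model's. Its neighbour Mast2 had 526, 440 and 310 reads (0.60 ± 0.23 SE, edgeR adjusted p = 0.0788), and 1700042G07Rik on the other side had 0 reads in every library. Slc7a14 (ENSMUSG00000069072.9) overlaps an antisense model, Gm15496, with 0 exonic bases shared and no symbol in the counts. Its neighbours Cldn11 (4, 0 and 4 reads) and Kcnmb2 (2, 4 and 3 reads) were too scarce to test. Pik3r2 shares 45 exonic bases with a model on the opposite strand, 6330537M06Rik.

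Genes with the most similar pattern were taken by the Euclidean distance between log2(CPM + 0.5) values centred over the 3 libraries, among 10286 tested genes with a mean of at least 5 CPM. With 3 libraries this measure holds only the size of the fall and the gap between the nulls. The nearest to Pik3r3 was Slc7a14 itself, at 0.31, then Gm15645, Tagln3, Omd and Dclre1c at 0.36 to 0.44. Slc7a14 had still closer genes, Dclre1c at 0.15, Eef1a2 at 0.16, Tagln3 at 0.19, Tmem69 at 0.22 and Mgst1 at 0.23. Of these, Eef1a2, the translation elongation factor form of muscle and neurons, had 54, 80 and 237 reads, and Dclre1c, the DNA repair nuclease Artemis, had 212, 317 and 887.

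Gpr22 had other near genes than Slc7a14, from which it lay at 0.64, and was at 0.88 from Pik3r3. Nearest was Gja4, the gap junction protein connexin 37 of endothelium, at 0.20, with 95, 92 and 384 reads. Slfn5 (0.23), Gm889 (0.28), Cav3 (0.30) and Ppp1r3a (0.34) followed. Cav3, the muscle form of caveolin, had 77, 73 and 264 reads, and Ppp1r3a had 42, 47 and 183. The groups of near genes differ in the gap between the nulls, with Sox7-null 1 below Sox7-null 2 in the genes nearest to Pik3r3 and Slc7a14. The distance takes in that gap and the fall, so near genes share both with their member by selection. Among the 5 nearest to Gpr22, Sox7-null 1 was the higher in CPM in all but Ppp1r3a.

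Cell type markers checked the tissue and what else the tubes held. Heart muscle genes were abundant in all 3 libraries, with summed CPM of 37567, 36364 and 29507 over 14 myocardial markers. Of these 7 rose and 0 fell with edgeR, with 8 higher and 1 lower at an unadjusted p under 0.05, and DESeq2 called 5 and 0, limma-voom 7 and 0. Tnnt2, the cardiac troponin T gene, rose by 0.88 ± 0.14 (SE) in log2. Ventricular markers summed to 7537, 6605 and 8602 CPM, with 2 of 9 higher and 1 lower, but 0 higher with DESeq2, with limma-voom or at a mean of at least 5 CPM. The 1 lower with edgeR was Myl2, and DESeq2 and limma-voom each called 1 lower as well. Atrial and sinus markers summed to 2443, 1493 and 517 CPM, a sum set mostly by Nppa, the atrial natriuretic peptide gene, with 29524, 16516 and 2585 reads. Among them Nr2f1, an atrial transcription factor, fell, with 92, 231 and 445 reads (-1.51 ± 0.36 SE, edgeR adjusted p = 0.0111, DESeq2 adjusted p = 0.376), and like Pik3r3 it was lowest in Sox7-null 1. The 12 endocardial and endothelial markers summed to 676, 657 and 620 CPM, with 3 higher and 2 lower. Cushion mesenchyme markers summed to 1826, 1379 and 1080 CPM, with 2 of 10 higher (Col1a1 and Vcan) and 2 lower (Sox9 and Twist1). Their list median was -0.52 in log2, with 2 higher and 5 lower at an unadjusted p under 0.05, so the sum does not stand for the typical marker. Markers of the atrioventricular canal and outflow tract summed to 405, 407 and 424 CPM, with 1 of 12 higher and 2 lower. DESeq2 called 1 higher and 1 lower in each of these last 3 lists, and 1 higher and 0 lower of the atrial and sinus markers.

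Markers of neural tissue were examined since Slc7a14 and Gpr22 are both known there. Of 20 neural tube and neuron markers, 10 were tested, 2 rose and 1 fell (1 and 0 with DESeq2), and Sox1, Pax3, Pax7, Neurog1 and Neurog2 had 0 reads in every library. Their summed level was 231, 224 and 143 CPM, most of it Nes (185, 193 and 106 CPM), an intermediate filament gene that the developing heart also expresses. Sox2, a defining neural progenitor gene, had 2 reads in each library. Elavl4, a neuronal RNA-binding protein gene, did fall, with 70, 82 and 152 reads (-1.04 ± 0.31 SE, edgeR adjusted p = 0.0307, DESeq2 adjusted p = 0.203). Stmn2, a neuronal tubulin regulator, had 12, 13 and 29 reads and did not pass the test. Tubb3, a neuronal tubulin, had 338, 154 and 179 reads, with Sox7-null 1 the highest. The part of neural cells in the fall of the 3 genes was not tested.

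Of 12 retinal markers, Crx, Rcvrn, Six6, Pde6b and Rpe65 had 0 reads in every library and 3 were tested. Their summed level of 75.3, 55.0 and 46.2 CPM was mostly Mitf, which is not limited to retina, and Lhx2, a gene of eye field and forebrain, fell, with 5, 2 and 58 reads (edgeR adjusted p = 0.00170), the 1 call of the list. DESeq2 gave Lhx2 no adjusted p, and a filter at a mean of 5 CPM leaves it out, so both settings called 0 retinal markers lower. Neural crest and glial markers summed to 77.6, 71.5 and 50.6 CPM, with 5 of 10 tested and 1 higher (0 with DESeq2), and Sox10, a defining neural crest gene, had 0, 1 and 11 reads. The null tubes differed from each other in blood, with the 10 blood markers summing to 4707, 14438 and 13915 CPM, low in Sox7-null 1 alone. Of 9 tested, 3 were called higher (Itga2b, Pf4 and Ppbp). The list median was -0.44 in log2, at -1.43 in Sox7-null 1 and 0.24 in Sox7-null 2. Epicardial markers summed to 1080, 841 and 266 CPM, with 2 of 7 tested higher (Krt19 and Wt1). Their median difference from the wild type was 1.17 in log2 in Sox7-null 1 but -0.04 in Sox7-null 2. The part of these differences in the levels of Pik3r3, Gpr22 and Slc7a14 was not tested.

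**Figure D5:**
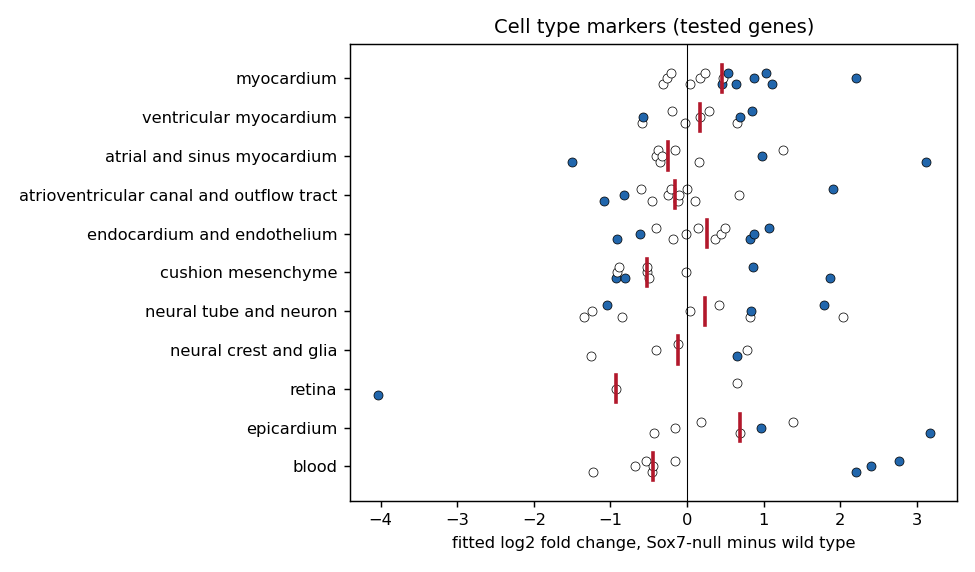
Fitted log2 fold change of each tested marker gene (points, filled where the edgeR adjusted p was under 0.05) by cell type, with a bar at the list median. Myocardial markers lie mostly above 0 (median 0.46) and the neural and endothelial lists spread on both sides (medians 0.23 and 0.26).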

How the data were processed

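The authors deposited 1 table of raw read counts by gene symbol for each library. The submitters' processing notes name CASAVA, TopHat2, HTSeq and DESeq2 1.10.1, and the human builds hg19 and GRCh37, although the genes carry mouse symbols. The true build is therefore unknown, and only RefSeq promoter windows (GRCm38.p6) carry coordinates. Per the labels' protocols, libraries were made from total RNA with a stranded kit. Summary lines (reads with no feature, 8.10% to 11.7%, ambiguous reads, 1.97% to 2.29%, and reads not uniquely aligned, 10.4% to 22.3%) were left out.

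Counts were tested with edgeR 4.0.16 (TMM, filterByExpr with a minimum count of 10, glmQLFit, glmQLFTest, Benjamini-Hochberg over 13334 genes) in R 4.3.3, with 1 residual and 11.8 prior degrees of freedom. The script was tested on simulated data. The exact permutation test of 2 libraries against 1 cannot go below p = 0.333 and was not used. The 2 nulls differed by more than sampling noise (chi-square per degree of freedom 19.6), so they were not taken as copies of 1 library, although separate preparations of 1 sample could differ as much. Levels per kb use the union exon length of GENCODE M21. The members and the 21 gene lists (385 entries, all matched, 4 through an older symbol) were chosen with earlier results of these data known, and the members are described without a test. Named genes are the 5 members and Sox7, overlapping or adjacent genes, the 5 genes nearest in pattern to each falling gene, and up to 4 genes of each list by smallest p plus those its description needs. Some genes that this rule takes are not reported here by name. Alternatives were 3 other scalings, 2 other filters, DESeq2 1.42.0, limma-voom (limma 3.58.1), removal of length and GC trends (mgcv 1.9.3) and leaving out each null library.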

Additional observations from a re-analysis of the deposited data

How the results depend on the processing

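Pik3r3, Gpr22 and Slc7a14 kept their direction under all alternatives run. Leaving out each null library gave log2 fold changes of -2.67 to -1.78 for Pik3r3, -2.24 to -1.90 for Gpr22 (-1.90 without Sox7-null 2), -2.25 to -1.69 for Slc7a14, -0.14 to 0.35 for Pik3r1 and 0.29 to 0.30 for Pik3r2. Without either null library no test is left, so counts of genes were not run there. The log2 fold change of Pik3r2, 0.30, was 0.30 with DESeq2 size factors or DESeq2, 0.31 with upper quartile scaling or a mean of at least 5 CPM, 0.32 with no filter, 0.39 with total reads and -0.070 with length and GC trends removed. DESeq2 called 941 genes higher and 721 lower, against 1508 and 1366 with edgeR. With no filter on low counts edgeR called 0 genes in either direction, so 0 pathway and 0 marker genes. That fit had 17242 genes and 3.23 prior degrees of freedom, against 13334 and 11.8. The smallest adjusted p was then 0.122, with 2147 genes higher and 1966 lower at an unadjusted p under 0.05, and DESeq2 on the same unfiltered counts, added after seeing the data, called 967 higher and 682 lower. Of pathway genes, 43 rose and 8 fell out of 201, and the number lower was 5 with a mean of at least 5 CPM, 5 with DESeq2 and 14 with length and GC trends removed. Of 99 marker genes, 25 rose and 10 fell, and DESeq2 called 15 and 4. The cause of these differences was not tested. No paired analysis was possible because the 2 groups share no replicate numbers in the labels. The 37 to 380 reads behind each value of Pik3r3, Gpr22 and Slc7a14 limit its precision, and the single wild-type library gives its level no spread.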

Other observations

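The neighbourhoods of the genes were looked at more widely after their values had been seen, taking the 5 nearest tested genes on each side. On 10 genes, counts of 0 to 2 are near the background of 11.3% higher and 10.2% lower. Around Pik3r3, 2 of 10 such genes were lower and 0 higher with edgeR (DESeq2 and limma-voom were not counted over these genes). They were Uqcrh, a subunit of mitochondrial complex III with 12584 reads in the wild type and 5030 and 6320 in the nulls (log2 fold change -1.19 ± 0.16 SE, edgeR adjusted p = 0.000667), and Tmem69, 3 tested genes away, with 258, 363 and 994 reads (-1.72 ± 0.22 SE, edgeR adjusted p = 0.000482). Like Pik3r3, Tmem69 was lower in Sox7-null 1 than in Sox7-null 2. Around Gpr22, Nampt, an enzyme of NAD synthesis, rose, with 3170, 2750 and 1341 reads, and Bcap29 fell by 0.67 ± 0.19 (SE). Around Slc7a14, 1 gene of 10 was higher and 1 lower. The same counts held around Pik3r1, and around Pik3r2, which did not fall, 2 of 10 were higher and 0 lower. Pik3cg, a PI3K catalytic subunit gene, is the third tested gene from Gpr22 and had 14, 18 and 7 reads.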
